A study of Homo sapiens with 12 samples.

Results

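The genes described here are 39 genes of the autophagy machinery, measured in the osteosarcoma line U2OS, which is human and whose p53 is wild type per the labels. They were taken by name from a list of autophagy genes, chosen with earlier results of these data known. Measured values enter the rule only in the choice of probe set. Each was read from the probe set that the platform annotation pairs with that gene alone and that had the highest mean over the 12 arrays. All 39 had such a probe set and passed the filter on low signal, among 13673 genes tested in all. The 4 groups held 3 arrays each and every culture was collected at 24 h. They were cells given 0.6 µg/ml doxorubicin with untreated cells as their control, and cells given 10 µM nutlin-3 with cells given 0.1% DMSO, its solvent, as theirs. Doxorubicin is a topoisomerase II poison that breaks DNA. Nutlin-3 keeps MDM2, the ubiquitin ligase that degrades p53, away from p53. All 4 groups are the same single cell line. Whether the replicates were grown as separate cultures is not in the labels, so the p-values rest on array-to-array spread that may be only technical.

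Autophagy encloses cytoplasm in a double membrane, the autophagosome, and delivers it to lysosomes for breakdown. A kinase complex around ULK1 starts the process, a lipid kinase complex around PIK3C3 marks the growing membrane with phosphatidylinositol 3-phosphate, and lipid carriers feed it. A ubiquitin-like conjugation system then attaches small ATG8 proteins (the LC3 and GABARAP families) to the membrane, and cargo receptors tie ubiquitinated proteins or mitochondria to those ATG8 proteins. Several autophagy genes, DRAM1 and ULK1 among them, have been described as p53 targets. The arrays measured transcript levels only and say nothing of the rate at which autophagosomes form or are broken down.

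The treatments showed in the arrays. CDKN1A, the p53 target that stops the cell cycle, was higher with doxorubicin (log2 change 2.47) and with nutlin-3 (2.30), and so was MDM2 (1.42 and 2.14). Array totals had been scaled by the authors to a shared trimmed mean of 500.06 to 500.07, and arrays of a group correlated at 0.98 to 0.991. Doxorubicin RNA stood apart in its 3′ to 5′ signal ratio for ACTB, which was 3.12 ± 0.577 with doxorubicin and 1.53 ± 0.0756 without treatment (SD, n = 3 each; exact 2-sided permutation test, p = 0.1, the smallest this design allows). The ratio was 1.3 ± 0.0257 with nutlin-3 and 1.28 ± 0.028 with DMSO. For GAPDH it was 1.07 ± 0.116 with doxorubicin and 1.02 ± 0.0355 untreated (exact permutation p = 0.6), and for dap, a control that is not a transcript of these cells, 5.79 ± 2.54 with doxorubicin and 2.71 ± 0.279 untreated (exact permutation p = 0.1). The part of the ACTB ratio in the doxorubicin results was not tested, and values with the single doxorubicin array of lowest ACTB ratio (2.48) are given beside the counts. All 6 osteoblast markers were measured and 4 passed the filter. Their summed signal was 82042 to 91509 with doxorubicin and 77924 to 85406 untreated, and 76817 to 85435 with nutlin-3 and 73107 to 81648 with DMSO. SPARC, COL1A1 and VIM made up most of that sum. RUNX2, a much smaller part of it, had a mean of 969.9 with doxorubicin and 1628 untreated, and 973.6 with nutlin-3 and 1270 with DMSO. Of 5 leukocyte markers, 4 were measured and 2 passed the filter, and their summed signal was 508.6 to 795.7 with doxorubicin, against 154.7 to 246.2 untreated, and 318.9 to 421.1 with nutlin-3, against 126.4 to 191.2 with DMSO. Most of that difference was LAPTM5, at a mean of 509 with doxorubicin and 85.1 untreated, and 258 with nutlin-3 and 60.8 with DMSO. PTPRC was 81.8 with doxorubicin and 50.6 untreated, and 34.2 with nutlin-3 and 42.8 with DMSO. CD3E was 83.7 with doxorubicin and 54.4 untreated, and 57.9 with nutlin-3 and 48.55 with DMSO. CD14 was 7.51 with doxorubicin and 2.98 untreated, and 3.235 with nutlin-3 and 9.31 with DMSO. The sum of 4 epithelial markers, 3 of them past the filter, was 1408 to 1720 with doxorubicin and 2012 to 2189 untreated, and 781.5 to 854.5 with nutlin-3 and 1074 to 1251 with DMSO. The 3 endothelial markers, 1 of them past the filter, summed to 229 to 312.9 with doxorubicin and 209.9 to 260.7 untreated, and to 142.3 to 184 with nutlin-3 and 120.8 to 164.6 with DMSO. No marker was at 0, and the part of these markers in the results was not tested.

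Doxorubicin changed most of the autophagy genes, mainly upward, and nutlin-3 changed fewer. With doxorubicin 17 of 39 were higher, 8 were lower and 14 did not pass an adjusted p of 0.05 in limma. That is 64.1% called, where 55.7% of all genes tested were called (30.1% higher and 25.6% lower), so the total is not far above the background while the split leans to higher. With nutlin-3 11 were higher, 2 were lower and 26 did not pass, which is 33.3% called where 26.4% of all genes were (12.5% higher and 13.9% lower). The median log2 change of the 39 genes was 0.25 with doxorubicin and 0.09 with nutlin-3, and that of all genes 0.08 and 0.01. Changes were of ordinary size: the median absolute log2 change was 0.46 with doxorubicin against 0.43 over all genes, and 0.24 with nutlin-3 against 0.22. All changes are on the log2(signal + 16) scale, which understates those of dim genes. In RNA from whole cultures, fewer cells of a kind and less RNA per cell cannot be told apart. The split into higher and lower calls depended on the scaling, in all genes as in these. Each array was also centred on its median, which moves the median of all genes with doxorubicin to -0.10. Higher calls then made up 38.4% of all genes called with doxorubicin, against 54% with the authors' scaling. With nutlin-3 they made up 41.8%, against 47.4%. Under median centring 11 of the 39 were higher and 11 lower with doxorubicin, and 7 higher and 1 lower with nutlin-3. The calls lost by that scaling were those on ULK1, AMBRA1, ATG2B, WIPI1, WIPI2 and ATG4B with doxorubicin and on BECN1, PIK3C3, PIK3R4, WIPI2 and MAP1LC3A with nutlin-3. With only doxorubicin array 1 kept, the change was, for example, 0.48 for ULK1, 0.46 for WIPI1 and -0.42 for ATG4C, beside 0.50, 0.41 and -0.53 with all arrays.

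**Figure D1:**
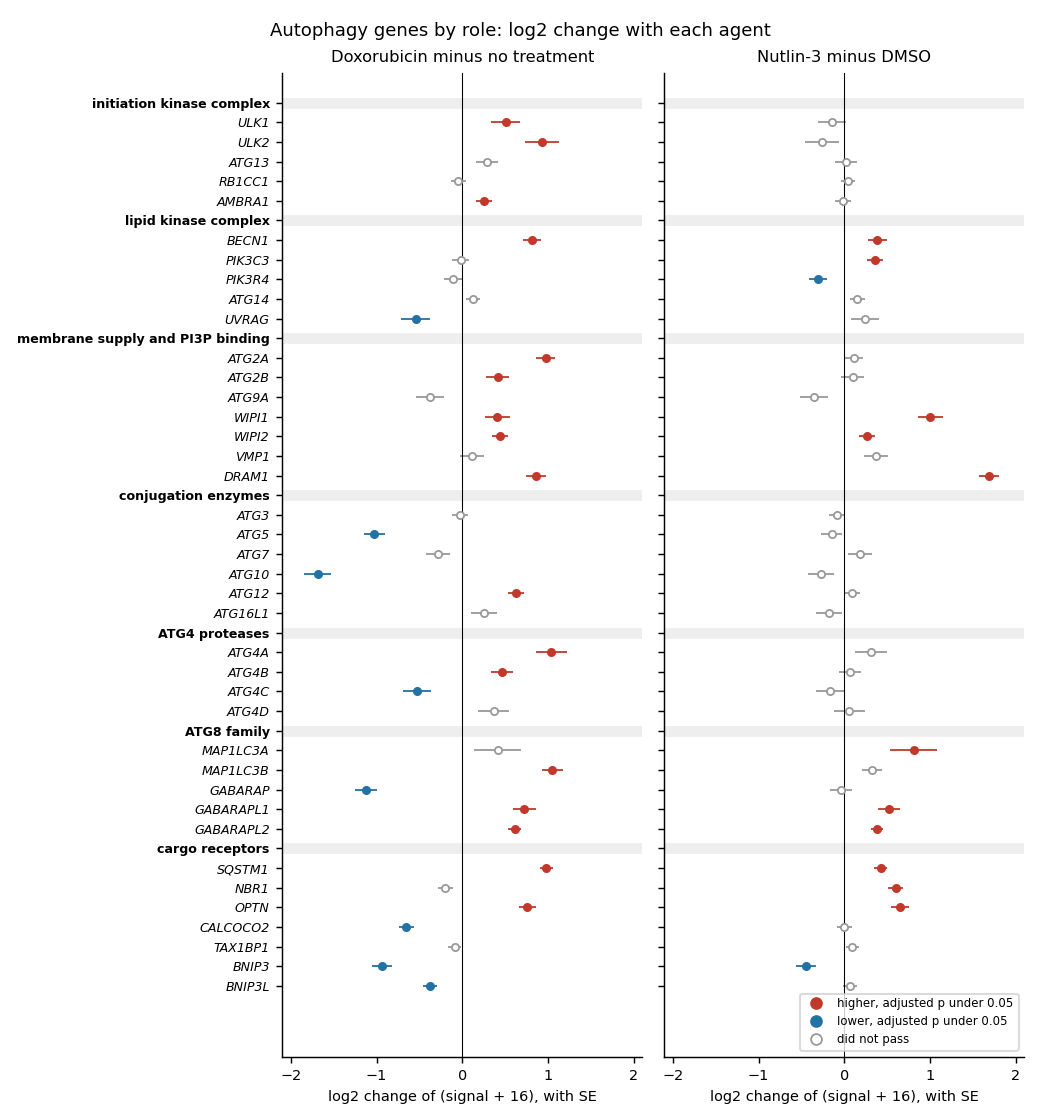
Log2 change of (signal + 16) for the 39 genes, grouped by role, with doxorubicin against no treatment (left) and nutlin-3 against DMSO (right). Points are limma estimates with their SE, filled red where higher and blue where lower at an adjusted p under 0.05, and open where they did not pass. Filled points number 25 with doxorubicin and 13 with nutlin-3, and ATG10 (-1.69, left) and DRAM1 (1.69, right) lie farthest out.

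The 2 agents shared part of the response. Genes higher with both were BECN1, WIPI1, WIPI2, DRAM1, GABARAPL1, GABARAPL2, SQSTM1 and OPTN, which is 8 of 39 (20.5%), where 8.25% of all genes tested were higher with both. BNIP3 was the 1 gene lower with both, where 7.41% of all genes were. A further 9 genes were higher with doxorubicin without passing with nutlin-3 (ULK1, ULK2, AMBRA1, ATG2A, ATG2B, ATG12, ATG4A, ATG4B and MAP1LC3B), and 7 were lower with doxorubicin without passing with nutlin-3 (UVRAG, ATG5, ATG10, ATG4C, GABARAP, CALCOCO2 and BNIP3L). With nutlin-3, PIK3C3, MAP1LC3A and NBR1 were higher and PIK3R4 lower without passing with doxorubicin. The remaining 10 passed with neither (ATG13, RB1CC1, ATG14, ATG9A, VMP1, ATG3, ATG7, ATG16L1, ATG4D and TAX1BP1). Of the 13673 genes tested, 2680 were higher and 2301 lower with doxorubicin without passing with nutlin-3. With nutlin-3, 395 were higher and 583 lower without passing with doxorubicin, and 5079 passed with neither. None of the 39 was called higher with one agent and lower with the other. Among all genes tested, 190 were lower with doxorubicin and higher with nutlin-3, and 304 the reverse. NBR1, higher with nutlin-3, was however called lower with doxorubicin in limma under median centring (-0.38, adjusted p = 0.023). The same held with the replicate number as a block (-0.20, adjusted p = 0.041). It also held against DMSO, a comparison added after the data were seen (-0.33, adjusted p = 0.0057). Across the 39 genes the 2 responses had a Pearson r of 0.48 and a Spearman rho of 0.53, against 0.44 and 0.34 across the 13673 genes. These comparisons share no control arrays, and the correlations are descriptions across genes, which are not independent replicates.

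The 4 promoters below are shown for DRAM1 (the largest rise with nutlin-3), GABARAPL1 (higher with both, and the gene with a p53 half-site), BNIP3 (the gene lower with both) and ATG10 (the largest fall with doxorubicin). Each is the 250 bases before the gene's start, 5′ to 3′ on the gene's strand, from RefSeq GRCh38.p14. They lie at chr12:101877330-101877579 (plus strand) for DRAM1, chr12:10212627-10212876 (plus) for GABARAPL1, chr10:131981924-131982173 (minus) for BNIP3 and chr5:81971773-81972022 (plus) for ATG10. Capitals mark a match to a searched motif, which is the p53 half-site in GABARAPL1 and CACGTG in BNIP3.
DRAM1: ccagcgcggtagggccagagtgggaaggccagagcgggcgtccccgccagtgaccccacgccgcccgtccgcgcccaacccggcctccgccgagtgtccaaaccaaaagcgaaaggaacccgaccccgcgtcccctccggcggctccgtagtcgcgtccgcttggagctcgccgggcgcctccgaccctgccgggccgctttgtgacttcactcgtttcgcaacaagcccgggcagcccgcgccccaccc
GABARAPL1: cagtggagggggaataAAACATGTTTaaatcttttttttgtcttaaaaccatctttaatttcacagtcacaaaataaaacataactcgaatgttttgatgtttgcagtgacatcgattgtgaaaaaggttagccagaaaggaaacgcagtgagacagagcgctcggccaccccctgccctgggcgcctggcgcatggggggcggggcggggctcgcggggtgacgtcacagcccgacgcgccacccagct
BNIP3: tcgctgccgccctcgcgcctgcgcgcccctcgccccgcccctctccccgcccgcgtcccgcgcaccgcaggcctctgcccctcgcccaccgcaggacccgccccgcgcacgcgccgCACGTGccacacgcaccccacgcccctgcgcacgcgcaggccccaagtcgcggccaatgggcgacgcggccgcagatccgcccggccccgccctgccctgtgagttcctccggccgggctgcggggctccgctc
ATG10: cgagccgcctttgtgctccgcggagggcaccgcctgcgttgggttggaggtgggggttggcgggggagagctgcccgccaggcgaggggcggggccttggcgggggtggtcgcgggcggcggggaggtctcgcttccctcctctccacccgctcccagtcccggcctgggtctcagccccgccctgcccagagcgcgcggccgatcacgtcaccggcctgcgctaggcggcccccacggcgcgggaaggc
GC content was 73.2% for DRAM1, 51.6% for GABARAPL1, 81.6% for BNIP3 and 77.6% for ATG10. RefSeq promoters were matched for 34 of the 39 genes (42 promoters, from 250 bases before to 50 after the start). The p53 half-site, searched by its consensus, was found in 1 of the 34 genes, GABARAPL1, as AAACATGTTT 234 bases before the start, and in 6.63% of all 35116 promoters. CACGTG, letters that TFEB and MYC are known to bind, was in 3 of the 34, against 7.26% of all promoters. Those were BNIP3 (134 before the start), ATG14 (21 before) and ATG3 (18 before and 6 after). Both motifs read the same on both strands. The 2 motifs did not overlap in these genes. A match describes letters in this window and is not a measured site.

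Of 5 genes grouped with the initiation complex, 3 were higher with doxorubicin, both kinases among them. Over all genes tested, 30.1% were higher with doxorubicin, and 26.4% were called with nutlin-3. Each role holds few genes, so this count and those of the other roles below are descriptions. ULK2, a kinase that starts autophagosome formation beside ULK1, had signals of 169.9, 238 and 194 with doxorubicin, against 100.5, 94.6 and 96.4 untreated. It had 89.4, 132.6 and 93.6 with nutlin-3, against 115, 135 and 134 with DMSO. All doxorubicin arrays lay above all untreated arrays, while nutlin-3 and DMSO arrays overlapped. The log2 change was 0.92 (SE 0.20, adjusted p = 0.00079) with doxorubicin and -0.26 (adjusted p = 0.38) with nutlin-3. ULK1 had 305, 252 and 384 with doxorubicin, against 225, 202 and 215 untreated, a change of 0.50 (SE 0.16, adjusted p = 0.015), and -0.15 (adjusted p = 0.57) with nutlin-3. AMBRA1, which links the initiation and lipid kinase complexes, had a change of 0.25 (adjusted p = 0.034) with doxorubicin. The scaffolds ATG13 (0.29, adjusted p = 0.074) and RB1CC1 (-0.05) did not pass. None of these 5 genes passed with nutlin-3 in limma, nor had an unadjusted p under 0.05, the values lying between -0.26 and 0.04. ULK1 did not pass without doxorubicin array 3 (0.35, adjusted p = 0.091) or with median centring (0.33, adjusted p = 0.16). AMBRA1 did not pass without any 1 of the 3 untreated arrays (0.24, 0.25 and 0.27) or without doxorubicin array 1 or 3 (0.21 and 0.25).

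In the lipid kinase complex, 1 of 5 genes was higher and 1 lower with doxorubicin, and 2 were higher and 1 lower with nutlin-3. Of all genes tested, 30.1% were higher and 25.6% lower with doxorubicin, and 12.5% and 13.9% with nutlin-3. BECN1, the scaffold that regulators bind, had signals of 1706, 1421 and 1791 with doxorubicin, against 851, 909.7 and 1010 untreated. It had 1703, 2097 and 1914 with nutlin-3, against 1356, 1477 and 1517 with DMSO. Both agents' arrays lay above all of their controls, and DMSO arrays also lay above all untreated arrays. BECN1 had a change of 0.81 (SE 0.11, adjusted p = 6.5e-06) with doxorubicin and 0.39 (SE 0.11, adjusted p = 0.013) with nutlin-3, and DMSO exceeded no treatment by 0.64 (adjusted p = 0.00095). Set against DMSO, a comparison added after the data were seen, doxorubicin gave BECN1 a change of 0.17 (adjusted p = 0.19). PIK3C3, the catalytic subunit, had 1317, 1364 and 1262 with nutlin-3, against 999.9, 985 and 1080 with DMSO. These arrays did not overlap, and the change was 0.36 (SE 0.09, adjusted p = 0.0093), beside -0.02 with doxorubicin. PIK3R4, its regulatory partner, had a change of -0.31 (adjusted p = 0.037) with nutlin-3 and -0.11 (adjusted p = 0.41) with doxorubicin. UVRAG, which takes the place of ATG14 in the endosomal form of the complex, had 203, 297 and 326 with doxorubicin, against 486, 368 and 360.2 untreated. All doxorubicin arrays lay below, and the change was -0.54 (SE 0.17, adjusted p = 0.011), beside 0.24 (adjusted p = 0.33) with nutlin-3. ATG14, which directs the kinase to autophagosomes, did not pass with either (0.12 and 0.15).

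Single arrays decided several of these calls. With nutlin-3, BECN1 did not pass without DMSO array 1 (0.34, adjusted p = 0.059) or nutlin-3 array 2 (0.31, adjusted p = 0.079), and PIK3R4 did not without DMSO array 1 or 3 or nutlin-3 array 2 or 3 (-0.33 to -0.23, adjusted p = 0.068 to 0.17). UVRAG did not pass with doxorubicin without untreated array 1 (-0.41, adjusted p = 0.065) or doxorubicin array 1 (-0.35, adjusted p = 0.072).

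Of 7 genes grouped under membrane supply and phosphatidylinositol 3-phosphate binding, DRAM1 among them, 5 rose with doxorubicin and 3 with nutlin-3, with none lower. Among all genes tested, 30.1% were higher and 25.6% lower with doxorubicin, and 12.5% and 13.9% with nutlin-3. DRAM1, a lysosomal membrane protein that p53 induces, had signals of 1271, 1002 and 1104 with doxorubicin, against 649, 588 and 595 untreated. It had 1518, 1596 and 1406 with nutlin-3, against 543, 399.9 and 437 with DMSO. Neither pair of groups overlapped, and the nutlin-3 arrays were the highest of the 12. DRAM1 had a change of 0.86 (SE 0.12, adjusted p = 1.1e-05) with doxorubicin and 1.69 (SE 0.12, adjusted p = 2e-08) with nutlin-3. WIPI1, which binds phosphatidylinositol 3-phosphate on the forming membrane, had 495, 515 and 429 with doxorubicin, against 271, 408 and 408 untreated. It had 929, 1207 and 1089 with nutlin-3, against 478, 537 and 564 with DMSO. Doxorubicin arrays lay just above the untreated ones, and nutlin-3 arrays lay far above DMSO. The change was 0.41 (SE 0.15, adjusted p = 0.029) with doxorubicin and 1.00 (SE 0.15, adjusted p = 7.1e-05) with nutlin-3. The doxorubicin call on WIPI1 was fragile: it was 0.22 (adjusted p = 0.18) without untreated array 1, 0.38 (adjusted p = 0.073) without doxorubicin array 1, 0.36 (adjusted p = 0.087) without doxorubicin array 2, and -0.13 (adjusted p = 0.47) against DMSO.

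ATG2A, which carries lipids to the growing membrane, had signals of 1092, 1175 and 1137 with doxorubicin, against 623, 545 and 544 untreated. Its values with nutlin-3 were 619, 513 and 683, against 547, 556 and 562 with DMSO. Only the doxorubicin arrays stood clear of their control, with a change of 0.97 (SE 0.11, adjusted p = 1.1e-06), beside 0.11 (adjusted p = 0.52) with nutlin-3. Its paralog ATG2B had a change of 0.41 (adjusted p = 0.016) with doxorubicin, a call lost without untreated array 1 (0.32, adjusted p = 0.076) or doxorubicin array 1 (0.34, adjusted p = 0.068), and by 0.10 with nutlin-3. WIPI2, which brings ATG16L1 to the membrane, had a change of 0.44 (adjusted p = 0.00066) with doxorubicin and 0.27 (adjusted p = 0.042) with nutlin-3. The nutlin-3 call on WIPI2 was lost without untreated array 2, any 1 of the 3 DMSO arrays, or nutlin-3 array 2 or 3 (0.20 to 0.30, adjusted p = 0.052 to 0.2). ATG9A, the transmembrane protein whose vesicles seed the membrane, was -0.38 (adjusted p = 0.065) with doxorubicin and -0.35 (adjusted p = 0.14) with nutlin-3, and did not pass. Its untreated arrays spread from 594 to 1012, and without untreated array 3 the doxorubicin change was -0.57 (adjusted p = 0.0074). VMP1, an endoplasmic reticulum protein needed for autophagosome formation, was 0.11 with doxorubicin and 0.37 (adjusted p = 0.06) with nutlin-3. VMP1 has 3 further probe sets that the annotation shares with MIR21, and these were not used.

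**Figure D2:**
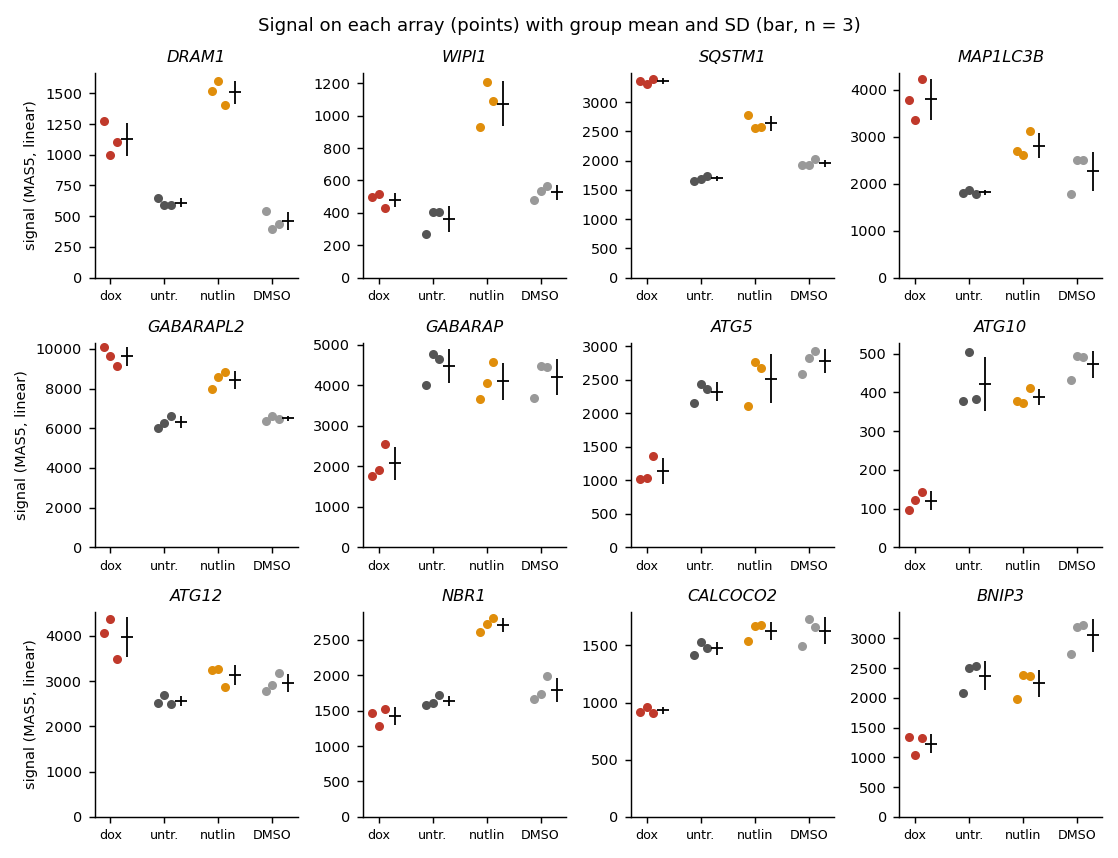
MAS5 signal (linear) of 12 of the autophagy genes on each array, from left to right doxorubicin (dox), no treatment (untr.), nutlin-3 (nutlin) and DMSO. Points are single arrays, and crosses with bars are the mean ± SD (n = 3). Each panel has its own axis from 0, and panels cannot be compared in level because probe sets differ. DRAM1 is highest with nutlin-3, and ATG10, ATG5, GABARAP and CALCOCO2 are low with doxorubicin alone.

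Of the 6 conjugation genes, 1 was higher and 2 were lower with doxorubicin, among them the largest fall of all 39. Over all genes tested, 30.1% were higher and 25.6% lower with doxorubicin, and 26.4% were called with nutlin-3. ATG10, the E2-like enzyme that passes ATG12 to ATG5, had signals of 95.6, 121 and 144 with doxorubicin, against 379, 503 and 384 untreated. With nutlin-3 it had 379, 373 and 410.4, against 433, 494 and 492 with DMSO. The doxorubicin arrays were far below every other array, and nutlin-3 arrays lay a little below DMSO. The change was -1.69 (SE 0.15, adjusted p = 7.5e-08) with doxorubicin and -0.28 (SE 0.15, adjusted p = 0.21) with nutlin-3. ATG5, which takes up ATG12, had 1017, 1037 and 1359 with doxorubicin, against 2156, 2433 and 2363 untreated. It had 2102, 2765 and 2678 with nutlin-3, against 2587, 2817 and 2925 with DMSO. The doxorubicin arrays again lay below all others, and nutlin-3 and DMSO overlapped. ATG5 had a change of -1.03 (SE 0.12, adjusted p = 1.5e-06) with doxorubicin and -0.15 (adjusted p = 0.41) with nutlin-3. ATG12, the ubiquitin-like protein that ATG5 takes up, went the other way. Its signals were 4068, 4368 and 3489 with doxorubicin, against 2515, 2693 and 2487 untreated, without overlap, and the change was 0.62 (SE 0.09, adjusted p = 2.4e-05). With nutlin-3 ATG12 had a change of 0.09 (adjusted p = 0.56). ATG7, the E1-like enzyme of both conjugation reactions (-0.28), ATG3, the E2-like enzyme for ATG8 proteins (-0.02), and ATG16L1, the membrane anchor of the ATG12-ATG5 conjugate (0.25), did not pass with doxorubicin. ATG7 was called lower with doxorubicin in limma under quantile scaling (-0.33, adjusted p = 0.047) and median centring (-0.46, adjusted p = 0.0088). With nutlin-3 none of these 6 genes passed in limma, nor had an unadjusted p under 0.05, the values lying between -0.28 and 0.19.

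The ATG4 proteases cut ATG8 proteins before conjugation and release them from membranes afterwards, and of the 4 genes 2 were higher and 1 lower with doxorubicin. The shares over all genes tested were 30.1% higher and 25.6% lower with doxorubicin, and 26.4% called with nutlin-3. ATG4A had signals of 403, 258 and 324 with doxorubicin, against 176, 135 and 139.5 untreated, without overlap. The change was 1.04 (SE 0.19, adjusted p = 0.00015), beside 0.31 (adjusted p = 0.25) with nutlin-3. ATG4B was also higher with doxorubicin (0.46, adjusted p = 0.0051), though not with median centring (0.28, adjusted p = 0.085). ATG4C went down: its signals were 277, 242 and 245 with doxorubicin, against 327, 469 and 344 untreated, a change of -0.53 (SE 0.16, adjusted p = 0.0098). That call was lost without untreated array 2 (-0.38, adjusted p = 0.068). ATG4D was 0.36 (adjusted p = 0.097) with doxorubicin. With nutlin-3 none of the 4 passed in limma, nor had an unadjusted p under 0.05, the values lying between -0.17 and 0.31.

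The ATG8 family, of 5 genes, split with doxorubicin into 3 genes higher and GABARAP lower, while with nutlin-3 3 were higher and none lower. Of all genes tested, 30.1% were higher and 25.6% lower with doxorubicin, and 12.5% and 13.9% with nutlin-3. MAP1LC3B, the LC3 protein most used as an autophagosome marker, had signals of 3792, 3358 and 4230 with doxorubicin, against 1800, 1869 and 1780 untreated. It had 2701, 2613 and 3116 with nutlin-3, against 1789, 2499 and 2499 with DMSO. Arrays did not overlap in either pair, but DMSO array 1 stood below the other DMSO arrays. MAP1LC3B had a change of 1.05 (SE 0.12, adjusted p = 1.3e-06) with doxorubicin and 0.32 (SE 0.12, adjusted p = 0.06) with nutlin-3, which passed without DMSO array 2 (0.40, adjusted p = 0.041) or 3 (0.40, adjusted p = 0.042). GABARAP, an ATG8 protein of the other subfamily, had 1750, 1916 and 2538 with doxorubicin, against 4005, 4768 and 4655 untreated. It had 3668, 4057 and 4563 with nutlin-3, against 3678, 4470 and 4452 with DMSO. The doxorubicin arrays alone were low. The change was -1.12 (SE 0.13, adjusted p = 1.1e-06) with doxorubicin and -0.04 (adjusted p = 0.88) with nutlin-3.

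The relatives of GABARAP moved opposite to it. GABARAPL2 had signals of 10092, 9653 and 9150 with doxorubicin, against 6013, 6273 and 6638 untreated. It had 7953, 8575 and 8829 with nutlin-3, against 6373, 6631 and 6472 with DMSO. Neither pair overlapped, and the change was 0.61 (SE 0.07, adjusted p = 2.1e-06) with doxorubicin and 0.38 (SE 0.07, adjusted p = 0.00086) with nutlin-3. GABARAPL1 had 547, 666 and 689.9 with doxorubicin, against 366, 459 and 316 untreated. It had 782, 757 and 846 with nutlin-3, against 560, 522 and 564 with DMSO. Both agents' arrays lay above their controls, with changes of 0.72 (SE 0.13, adjusted p = 0.00017) and 0.52 (SE 0.13, adjusted p = 0.0067). GABARAPL1 was also higher with DMSO than without treatment (0.52, adjusted p = 0.014), and doxorubicin against DMSO gave 0.20 (adjusted p = 0.21). MAP1LC3A, another LC3 gene, had 104.9, 131 and 141 with nutlin-3, against 64.1, 34.9 and 111 with DMSO, groups that overlap. Its change of 0.81 (SE 0.27, adjusted p = 0.036) was lost without any 1 of DMSO arrays 1 and 2 and nutlin-3 arrays 2 and 3 (0.48 to 0.81, adjusted p = 0.082 to 0.19). DMSO minus no treatment was -0.92 (adjusted p = 0.033), and nutlin-3 against untreated cells gave -0.11 (adjusted p = 0.79). Doxorubicin gave MAP1LC3A a change of 0.41 (adjusted p = 0.21).

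Of the 7 cargo receptors, 2 were higher and 3 lower with doxorubicin, and 3 were higher and 1 lower with nutlin-3. Among all genes tested, 30.1% were higher and 25.6% lower with doxorubicin, and 12.5% and 13.9% with nutlin-3. SQSTM1 (p62), which carries ubiquitinated proteins to LC3 and is itself degraded by autophagy, had signals of 3365, 3305 and 3399 with doxorubicin, against 1652, 1689 and 1744 untreated. It had 2782, 2553 and 2572 with nutlin-3, against 1921, 1925 and 2027 with DMSO. The arrays of each group lay close together and neither pair overlapped. SQSTM1 had a change of 0.98 (SE 0.07, adjusted p = 9.5e-09) with doxorubicin and 0.43 (SE 0.07, adjusted p = 0.00034) with nutlin-3. OPTN, a receptor for ubiquitinated mitochondria and bacteria, had 1847, 1641 and 1715 with doxorubicin, against 1109, 936 and 1013 untreated. It had 1821, 1906 and 1881 with nutlin-3, against 1013, 1342 and 1227 with DMSO. Neither pair overlapped, and the changes were close to each other, at 0.76 (SE 0.10, adjusted p = 9.6e-06) and 0.65 (SE 0.10, adjusted p = 0.00015). NBR1, which works beside SQSTM1 on protein aggregates, had 2613, 2727 and 2808 with nutlin-3, against 1667, 1733 and 1984 with DMSO. With doxorubicin it had 1472, 1287 and 1525, against 1587, 1609 and 1717 untreated. Nutlin-3 arrays lay above and doxorubicin arrays below their controls. NBR1 had a change of 0.60 (SE 0.09, adjusted p = 9.4e-05) with nutlin-3, and the change of -0.20 (adjusted p = 0.077) with doxorubicin did not pass, though it did without doxorubicin array 3 (-0.25, adjusted p = 0.049).

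CALCOCO2 (NDP52), a receptor for bacteria and mitochondria, had signals of 919.6, 965 and 911 with doxorubicin, against 1416, 1533 and 1481 untreated. It had 1536, 1669 and 1677 with nutlin-3, against 1499, 1728 and 1664 with DMSO. The doxorubicin arrays stood clear below all others. The change was -0.65 (SE 0.09, adjusted p = 5.7e-06) with doxorubicin and 0.00 (adjusted p = 0.99) with nutlin-3. BNIP3, a receptor in the mitochondrial outer membrane that hypoxia induces, had 1334, 1040 and 1316 with doxorubicin, against 2086, 2501 and 2532 untreated. It had 1977, 2378 and 2368 with nutlin-3, against 2735, 3195 and 3219 with DMSO. Both agents' arrays lay below their controls, with changes of -0.94 (SE 0.12, adjusted p = 2.7e-06) and -0.44 (SE 0.12, adjusted p = 0.0087). DMSO exceeded no treatment by 0.36 (adjusted p = 0.047), and nutlin-3 against untreated cells gave -0.08 (adjusted p = 0.62). BNIP3L (NIX), the related mitochondrial receptor that removes mitochondria from maturing red cells, had a change of -0.38 (SE 0.08, adjusted p = 0.00086) with doxorubicin and 0.07 (adjusted p = 0.62) with nutlin-3. TAX1BP1, a relative of CALCOCO2, did not pass with either (-0.09 and 0.09).

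The difference between the agents was tested directly, as the doxorubicin response minus the nutlin-3 response. It passed for 19 of 39 genes (48.7%), 8 with a higher and 11 with a lower doxorubicin response, where 39.5% of all genes passed (21.8% higher and 17.7% lower). The higher ones were led by ULK2 (1.19, SE 0.28, adjusted p = 0.003), ATG2A (0.86, SE 0.16, adjusted p = 0.00034), ATG4A (0.73, adjusted p = 0.036) and MAP1LC3B (0.73, SE 0.17, adjusted p = 0.0029). The lower ones were led by ATG10 (-1.41, SE 0.22, adjusted p = 7.4e-05), GABARAP (-1.09, SE 0.18, adjusted p = 0.00016), ATG5 (-0.88, SE 0.17, adjusted p = 6e-04), DRAM1 (-0.83, SE 0.17, adjusted p = 0.00097) and NBR1 (-0.79, SE 0.13, adjusted p = 0.00013). DRAM1 and WIPI1 (-0.60, adjusted p = 0.034) rose with both agents and more with nutlin-3. On a shared control the DRAM1 changes lay closer, at 0.86 with doxorubicin and 1.28 with nutlin-3 against no treatment, and 1.27 with doxorubicin and 1.69 with nutlin-3 against DMSO. GABARAPL1 (0.20, adjusted p = 0.42) and OPTN (0.11, adjusted p = 0.6) had no difference that passed, with SEs of 0.19 and 0.15. Some of these calls did not survive leaving out a single array. ULK1 was lost (0.50 to 0.66) without doxorubicin array 1 or 3, untreated array 2 or 3, nutlin-3 array 1, or DMSO array 2 or 3. ATG4A was lost (0.58 to 0.75) without doxorubicin array 1 or 3, untreated array 2 or 3, nutlin-3 array 2 or 3, or any 1 DMSO array. BECN1 was lost (0.35 to 0.43) without doxorubicin array 1 or 3, untreated array 1 or 2, nutlin-3 array 1 or 3, or DMSO array 2 or 3. PIK3C3 (difference -0.38) was lost (-0.38 to -0.30) without doxorubicin array 2, untreated array 1 or 3, nutlin-3 array 1 or 2, or DMSO array 1 or 2. WIPI1 was lost (-0.61 to -0.50) without doxorubicin array 3, untreated array 2 or 3, nutlin-3 array 2 or 3, or DMSO array 1 or 2. BNIP3 (difference -0.50) was lost (-0.46 to -0.38) without doxorubicin array 2, untreated array 2 or 3, nutlin-3 array 2 or 3, or DMSO array 1. Of all genes called for the difference, 55.3% were higher with the authors' scaling and 39.6% with each array centred on its median. With that centring, 2 of the 39 genes, ULK2 and ATG2A, were higher and 12 lower. The higher calls lost there were ULK1 (0.49, adjusted p = 0.17), ATG4A (0.57, adjusted p = 0.098), MAP1LC3B (0.57, adjusted p = 0.056), ATG12 (0.38, adjusted p = 0.085), SQSTM1 (0.40, adjusted p = 0.062) and BECN1 (0.27, adjusted p = 0.34). With only doxorubicin array 1 kept, the difference was, for example, 0.63 for ULK1, -0.32 for PIK3C3 and -0.55 for WIPI1, beside 0.65, -0.38 and -0.60 with all arrays.

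**Figure D3:**
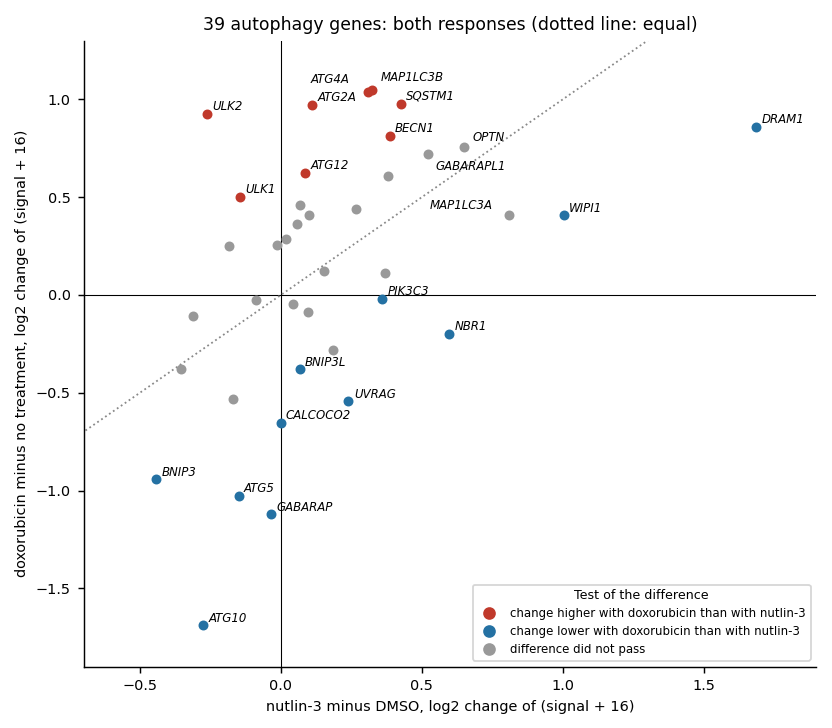
Log2 change of (signal + 16) with doxorubicin against no treatment (vertical) and with nutlin-3 against DMSO (horizontal) for the 39 genes. Red points have a higher and blue points a lower doxorubicin response at an adjusted p under 0.05 in the test of the difference, grey points did not pass, and the dotted line marks equal changes. ULK2 lies far above the line, and DRAM1, ATG10 and GABARAP far below it.

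DMSO against no treatment served as a check on the controls. It passed for 6 of 39 genes (15.4%), 4 higher and 2 lower, where 14.1% of all genes passed (8.14% higher and 5.98% lower), so the share is near the background. Higher with DMSO were BECN1 (0.64), WIPI1 (0.54, adjusted p = 0.024), GABARAPL1 (0.52) and BNIP3 (0.36). Lower with DMSO were MAP1LC3A (-0.92) and DRAM1 (-0.41, adjusted p = 0.032). This comparison shares its arrays with both of the others. Without untreated array 1 or 3, or DMSO array 2 or 3, 2 genes passed, and without DMSO array 1, 7 did. With both agents set against the other control, added after the data were seen, doxorubicin gave 15 genes higher and 10 lower, and nutlin-3 gave 15 higher and 1 lower. All genes tested were called in 59.5% and 39.7% of cases there, and the 39 genes in 64.1% and 41%. Doxorubicin against DMSO lost the calls on AMBRA1 (0.01), BECN1, ATG2B (0.11), UVRAG (-0.23), WIPI1 and GABARAPL1, and nutlin-3 against no treatment lost those on PIK3R4 (-0.11), WIPI2 (0.05), MAP1LC3A and BNIP3. Calls gained with doxorubicin were MAP1LC3A (1.33), ATG4D (0.55), ATG13 (0.45), ATG3 (-0.23), PIK3R4 (-0.30) and NBR1 (-0.33). Those gained with nutlin-3 were VMP1 (0.67), MAP1LC3B (0.62), ATG4A (0.50), ATG2B (0.40), ATG12 (0.28), ATG14 (0.28) and ATG9A (-0.63).

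Other probe sets of the same genes gave like values for some genes and unlike values for others. Of the 39 genes, 26 had more than 1 probe set past the filter, and 1 of these, CALCOCO2, had 1 probe set called higher and others called lower with doxorubicin. No gene had such a split with nutlin-3. For ATG10 the second probe set gave -1.57 with doxorubicin, beside -1.69. For ATG5 it gave -0.98 beside -1.03, and for BNIP3 -1.18 beside -0.94. With nutlin-3, however, the second BNIP3 probe set gave -0.07, beside -0.44 for the one used. For SQSTM1 the probe set used (mean signal 2411) gave 0.98 with doxorubicin, while the other 4, with mean signals of 119 to 261, gave -0.46 to 0.78. ATG3 was -0.02 by its probe set of mean signal 5270 and 0.88 by the other, of mean signal 322. ATG7 was -0.28 with doxorubicin by the probe set used, of mean signal 376. Its probe set of mean signal 350.6 gave -0.50 (limma, adjusted p = 0.0088 over all probe sets). Those of mean signal 154.5 and 84.1 gave 0.50 (adjusted p = 0.096) and 0.03. For CALCOCO2 the probe set of mean signal 71.1 gave 0.94, against -0.65 for the one used, of mean signal 1416. For NBR1 the second probe set, of mean signal 450.7, gave -0.51 (adjusted p = 0.0035 over all probe sets) with doxorubicin and 0.50 (adjusted p = 0.011) with nutlin-3. For PIK3C3 with nutlin-3 the other 3 probe sets gave -0.40 to -0.12, against 0.36 for the one used. Which transcripts each probe set reads was not analysed here.

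**Figure D4:**
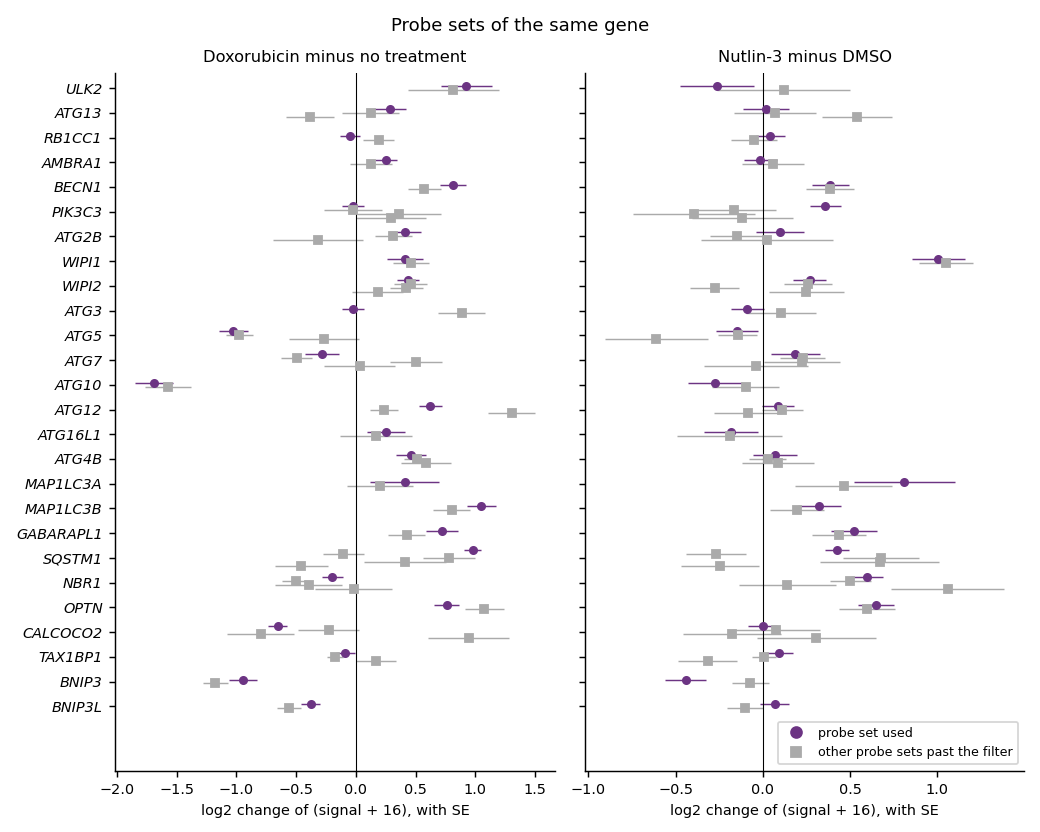
Log2 change of (signal + 16) for every probe set past the filter in the 26 genes that have more than 1, with doxorubicin against no treatment (left) and nutlin-3 against DMSO (right). Purple circles are the probe sets used, grey squares the others, and bars the SE. For ATG10, ATG5 and BNIP3 the squares nearest the circles repeat the fall with doxorubicin, whereas for ATG3, SQSTM1 and CALCOCO2 some squares lie on the other side of 0.

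The genes that fell with doxorubicin differed in length. The span of the gene in RefSeq GRCh38.p14 had a median of 36.2 kb for the 17 genes higher with doxorubicin, 57.8 kb for the 8 lower and 51.2 kb for the 14 that did not pass. ATG10 spans 284.1 kb, UVRAG 329 kb and ATG5 141 kb, all lower, but GABARAP, also lower, spans 2.4 kb, and ATG7, at 304 kb, did not pass. Across the 39 genes the Spearman correlation of length with change was -0.29 with doxorubicin and -0.12 with nutlin-3. Across all genes tested it was -0.18 and -0.09. These are descriptions across genes, which are not independent replicates.

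Beyond the 39, a list of 40 other autophagy genes (regulators, further receptors, fusion and tethering factors, transcription factors) had 38 tested. With doxorubicin 17 were higher and 6 lower, and with nutlin-3 11 were higher and 2 lower, against the same backgrounds of 55.7% and 26.4% called. The nutlin-3 count of 13 was 7 without nutlin-3 array 3. TP53INP1, a p53 target that binds LC3, rose most with both agents, by 3.11 (SE 0.12, adjusted p = 1.9e-12) with doxorubicin and 2.51 (SE 0.12, adjusted p = 1.9e-10) with nutlin-3. ATG16L2, a relative of ATG16L1, rose by 1.63 (SE 0.21, adjusted p = 3.5e-06) with doxorubicin and 0.97 (adjusted p = 0.0018) with nutlin-3. VAMP8, a SNARE that fuses autophagosomes with lysosomes, rose by 1.08 (SE 0.11, adjusted p = 1.4e-06) with nutlin-3 and 0.71 (adjusted p = 4e-05) with doxorubicin. For neither gene did the difference between the agents pass in limma (adjusted p = 0.082 and 0.077). MAP1LC3C, a further LC3 gene, had signals of 14.1, 18.9 and 30.2 with doxorubicin, against 145, 196 and 167 untreated. It had 40.8, 40.2 and 28.4 with nutlin-3, against 55.2, 124 and 124 with DMSO. Treated arrays lay below their controls. Both treated means are under the filter level of 49.3, so the gene entered the test through its control groups alone, and its fall, which is included in the counts above, is given as signals only. TMEM41B, an endoplasmic reticulum scramblase that acts beside VMP1, had a change of -0.93 (adjusted p = 1.8e-07) with doxorubicin and -0.35 (adjusted p = 0.0073) with nutlin-3.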

How the data were processed

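Transcripts of U2OS cells were measured on Affymetrix U133 Plus 2.0 arrays, 12 arrays in 4 groups of 3, grouped by title. The deposited values are linear signal intensities per probe set, made by the authors with MAS5 per the submitters' processing notes. Its version and settings are not given in the sources used here, and no detection calls were used. The table holds 54675 probe sets, 62 of them controls, which were left out. The number of arrays limits the precision.

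Values became log2(signal + 16), keeping the authors' scaling. Probe sets with a mean under the 40th percentile (signal 49.3) were dropped. The platform annotation gave 1 symbol for 41097 probe sets, several for 1801 and did not list 11777, and symbols were updated to RefSeq GRCh38.p14 (13658 of 13673 genes matched). Each gene took its single-gene probe set of highest mean. limma 3.58.1 in R 4.3.3 (lmFit, eBayes with trend) was fitted to all 12 arrays with 4 group means, and p-values were adjusted by Benjamini-Hochberg over 13673 genes, with calls at 0.05. The procedure was tested on simulated data, with 100 genes changed at each of 2 sizes. Of log2 changes of 1, 86% were called in the right direction with doxorubicin and 82% with nutlin-3. Of changes of 0.5, 45% and 41% were, so genes that did not pass may have changed by that much. Far more genes were called in the data, which moves the cut-off, so these shares need not hold there. SE is that of the moderated fit.

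The genes and lists were chosen with earlier results of these data known. All 39 genes are named. Of the other autophagy genes, up to 2 called rises and 2 called falls of largest size are named per agent, and CDKN1A and MDM2 check the treatments. Alternatives were other scalings, pseudocounts, filters and probe set choices, no trend, array weights, fits of 6 arrays, a replicate block, single arrays left out and stricter thresholds. Chosen after seeing the data were keeping only doxorubicin array 1, the other control and testing every probe set. Protein sequences were not analysed here.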

Additional observations from a re-analysis of the deposited data

Results flagged for a closer look

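For 19 genes the doxorubicin and nutlin-3 responses differed in limma's test of the difference itself (adjusted p under 0.05), which asks more than that 1 agent passes and the other does not. Values are the doxorubicin response minus the nutlin-3 response on the log2(signal + 16) scale. The doxorubicin response was the higher for the initiation kinases ULK2 (1.19) and ULK1 (0.65), the lipid carrier ATG2A (0.86), the protease ATG4A (0.73), MAP1LC3B (0.73), the receptor SQSTM1 (0.55), ATG12 (0.54) and BECN1 (0.43). Of these 8, ULK2 and ATG2A passed with each array centred on its median. That centring also lowered the share of higher calls among all genes called, from 55.3% to 39.6%. It was the lower for PIK3C3 (-0.38), BNIP3L (-0.45), BNIP3 (-0.50), WIPI1 (-0.60), CALCOCO2 (-0.65), UVRAG (-0.78), NBR1 (-0.79), DRAM1 (-0.83), ATG5 (-0.88), GABARAP (-1.09) and ATG10 (-1.41). Groups of 3 arrays are too small for a test of single outlying arrays. The 2 agents differ in their control, and the 3′ to 5′ ratio of ACTB was 3.12 with doxorubicin, against 1.53 untreated, and its part in these differences was not tested.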

How the results depend on the processing

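Of the calls on the 39 genes, 15 of 25 with doxorubicin, 5 of 13 with nutlin-3, 8 of 19 for the difference and 1 of 6 for DMSO held at an adjusted p of 0.05 under every alternative in which the gene was tested, leaving out the stricter thresholds and those chosen after seeing the data. The 60th percentile filter kept 37 of the 39 genes, and a gene that it dropped was not counted as lost. Counts of the 39 genes moved by over 1.5 times as follows. Median centring gave 8 with nutlin-3. An adjusted p under 0.01 gave 12 for the difference and 1 for DMSO. A change of at least 2-fold as well gave 5 with doxorubicin, 2 with nutlin-3, 3 for the difference and 0 for DMSO (limma, where 18 had an unadjusted p under 0.05). For DMSO, quantile scaling, no trend and every probe set tested each gave 3, and array weights gave 11. Leaving out single arrays gave 21 to 26 with doxorubicin, 9 to 14 with nutlin-3, 14 to 18 for the difference and 2 to 7 for DMSO. Of the other autophagy genes, median centring gave 8 with nutlin-3 and 8 for DMSO. An adjusted p under 0.01 gave 7 and 3, and 2-fold gave 9 with doxorubicin, 4 with nutlin-3, 5 for the difference and 0 for DMSO (13 had an unadjusted p under 0.05). For DMSO, no trend and every probe set gave 3 and array weights 8, and the other control gave 23 with nutlin-3. Single arrays left out gave 22 to 24, 7 to 14, 14 to 17 and 3 to 6. Among values that passed either as reported or under the alternative, directions reversed with other probe sets or the other control. Values that passed in neither could also change sign, such as ATG14 with doxorubicin under median centring (-0.05). The mean of all probe sets gave 0.43 for ATG3 with doxorubicin, and -0.080 with nutlin-3 and 0.23 for the difference for PIK3C3. Probe sets other than _x_at and _s_at gave 0.88 for ATG3, 0.50 for ATG7 and -0.10 for SQSTM1 with doxorubicin, and -0.27 for SQSTM1 and -0.28 for WIPI2 with nutlin-3. The other control gave -0.13 for WIPI1 with doxorubicin and -0.11 for MAP1LC3A with nutlin-3. The cause of these changes was not tested. Deviations of same-numbered arrays from their group means correlated at -0.09 to -0.02 for doxorubicin and untreated. The values were -0.01 to 0.17 for nutlin-3 and DMSO, and 0.01 to 0.10 for DMSO and untreated. With 3 arrays per group these values cannot decide whether same-numbered arrays share more than a number. With the replicate number as a block the 39 genes gave 27, 15, 19 and 6 calls, and the other genes 25, 14, 21 and 8. Fits of 6 arrays give no value for the difference.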

Other observations

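Several of the other autophagy genes outside the naming rule moved by over 1 on the log2 scale with doxorubicin and are given here after their values were seen. PINK1, the kinase that marks damaged mitochondria, had signals of 1437, 1096 and 1602 with doxorubicin, against 476, 519 and 441 untreated. The change was 1.48 (SE 0.15, adjusted p = 3.2e-07), beside 0.06 (adjusted p = 0.84) with nutlin-3. TFEB, a transcription factor of lysosomal and autophagy genes, had 673, 632 and 586 with doxorubicin, against 232, 259 and 228 untreated, without overlap. It had a change of 1.34 (SE 0.13, adjusted p = 2.4e-07) with doxorubicin and 0.31 (adjusted p = 0.1) with nutlin-3, and DMSO minus no treatment was -0.67 (adjusted p = 0.0033). PLEKHM1, an adaptor for lysosome fusion, had 602.9, 706.9 and 746.6 with doxorubicin, against 418.9, 169.8 and 509.7 untreated. Untreated array 2 stood far below the other untreated arrays. The PLEKHM1 change was 1.00 (SE 0.27, adjusted p = 0.0042) with doxorubicin and 0.69 (adjusted p = 0.067) with nutlin-3. EI24, a p53-induced endoplasmic reticulum protein, had a change of 1.13 (adjusted p = 8.8e-09) with doxorubicin and 0.85 (adjusted p = 9.1e-07) with nutlin-3. WDR45, which binds phosphatidylinositol 3-phosphate, had a change of 1.39 (adjusted p = 3.3e-08) with doxorubicin and 0.64 (adjusted p = 0.00055) with nutlin-3, and VPS18, a subunit of the HOPS tethering complex, by 1.05 (adjusted p = 3.3e-06) and 0.28 (adjusted p = 0.14). EPG5, a tether that directs autophagosomes to lysosomes, had a change of 1.00 (SE 0.12, adjusted p = 6.2e-06) with nutlin-3 and -0.16 (adjusted p = 0.26) with doxorubicin.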
